A study of Mus musculus with 8 samples.

Results

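A set of 10 genes of white and brown fat cells, out of 55573 genes in the deposited count table, was followed through RNA sequencing libraries of mouse hearts. They are Ucp1, Adipoq, Plin1, Cidec, Lep, Cfd, Car3, Pck1, Lgals12 and Adig. They had been picked because earlier inspection of the same counts showed such genes high in some db/m libraries, so their levels and their genotype contrast are given as a description, without a test. The tissue came from male C57BLKS/J mice aged 24 weeks, with 4 db/db libraries and 4 db/m libraries. The db/db animals are homozygous for the diabetes mutation of the leptin receptor gene and become obese and diabetic, and the db/m animals carry it once and are the lean controls. The labels do not say which part of the heart was taken or whether each library came from its own animal, so the spread between libraries may be partly technical. Library totals ran from 19541757 to 22249911 counts.

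White adipocytes store triglyceride in one large droplet and secrete hormones such as leptin and adiponectin. Brown adipocytes burn fatty acids in mitochondria uncoupled by Ucp1, and they share most of the lipid droplet and adipokine genes with white adipocytes. In mice, fat lies around the heart and the great vessels, and the fat along the thoracic aorta has brown features. Heart muscle itself takes up and burns fatty acids, so many lipid genes are active in both tissues. In bulk tissue a lower count cannot tell fewer cells of a type from less RNA per cell.

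The sequences just upstream of the start sites are shown for 3 of these genes because they stand for thermogenic and secretory adipocyte products that move together across the libraries. Each line gives the last 100 bases before the start, 5′ to 3′, from RefSeq on GRCm38.p6. Capitals mark AGGTCA in the Ucp1 line (chr8:83290248-83290347, plus strand), CCAAT or its reverse complement in the Adipoq line (chr16:23146436-23146535, plus strand) and TTGCNNAA in the Lep line (chr6:29060121-29060220, plus strand).
Ucp1: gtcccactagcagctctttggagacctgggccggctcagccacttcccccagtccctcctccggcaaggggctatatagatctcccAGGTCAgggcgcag
Adipoq: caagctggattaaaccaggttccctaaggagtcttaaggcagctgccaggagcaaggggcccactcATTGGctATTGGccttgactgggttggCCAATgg
Lep: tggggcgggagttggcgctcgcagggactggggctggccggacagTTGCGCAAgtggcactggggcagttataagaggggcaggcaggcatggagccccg

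Promoter entries were found for 8 of the 10 genes. In the 250 bases before the start, on both strands, the C/EBP core TTGCNNAA was present in Lep, Plin1 and Cidec, 3 of 8 genes, against 9.56% of 32851 promoter windows of all genes. The nuclear receptor motif AGGTCA was present in Ucp1 and Adig, against 14% of all windows. A direct repeat of that motif, AGGTCA and AGGTCA with 1 base between, was in 0 of the 8 genes and in 0.0335% of all windows. CCAAT was in Adipoq alone, at 3 places, against 33.8% of all windows. These letters are a description of the windows and no binding was measured.

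Apart from Adig, the genes had few counts in every db/db library and in 2 of the 4 db/m libraries, and many more in the other 2 db/m libraries. Summed over the 10 genes there were 31, 70, 27 and 31 counts in db/db replicates 1 to 4, against 12788, 73, 50281 and 149 counts in db/m replicates 1 to 4. The high libraries were db/m replicates 1 and 3. Without Adig the sums were 17, 43, 8 and 5 counts in db/db, against 12736, 68, 50202 and 134 counts in db/m. The 10 genes took 0.0591% of all counts in db/m replicate 1 (exact Clopper-Pearson 95% interval 0.058% to 0.0601%) and 0.23% in db/m replicate 3 (0.228% to 0.232%), intervals that cover counting error only. In each of the 10 genes both libraries lay above the other 6, which held for 15.4% of 18664 genes with at least 50 counts over all libraries. The genes were chosen on this pattern, so nothing is read from that share.

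**Figure D1:**
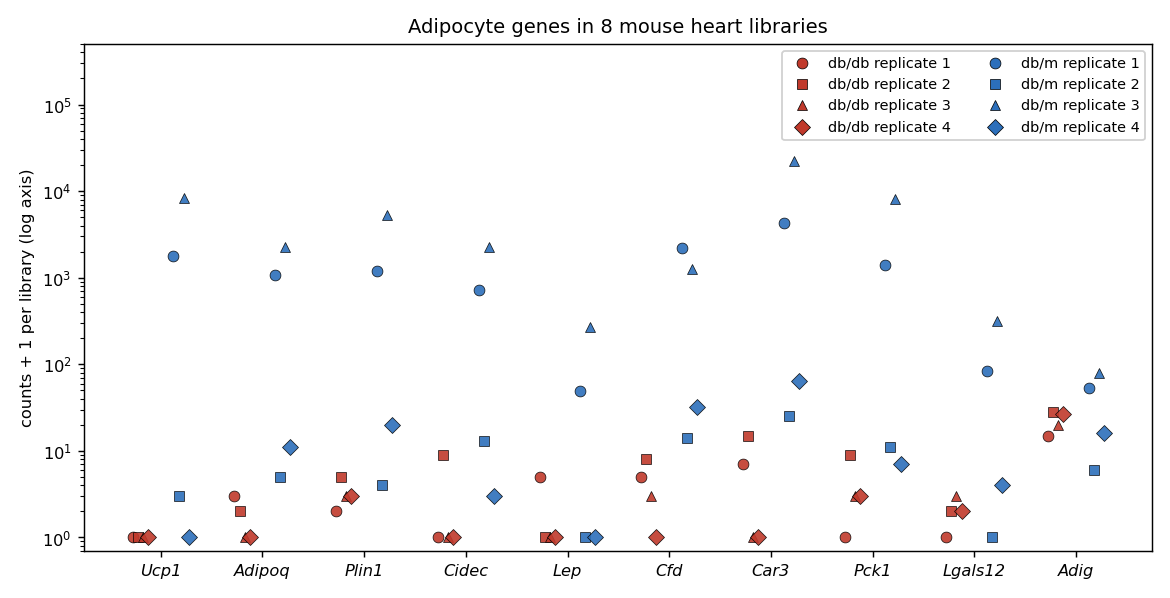
Counts plus 1 of the 10 adipocyte genes in each library, on a log axis, with db/db libraries in red to the left of db/m libraries in blue and a marker shape for each replicate number. Circles and triangles of db/m stand far above all other points for every gene except Adig, where the db/db libraries hold 14 to 27 counts.

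Ucp1 is the proton carrier that lets brown fat mitochondria release energy as heat (ENSMUSG00000031710, chromosome 8, 83290352 to 83298452, mm10). It had 0, 0, 0 and 0 counts in db/db replicates 1 to 4, against 1765, 2, 8220 and 0 counts in db/m replicates 1 to 4. A count of 0 allows up to 3 counts, or 0.138 to 0.162 CPM (counts per 1000000 of the scaled library size) in the db/db libraries. The mean level was 0 CPM in db/db and 104 ± 161 CPM in db/m (SD, n = 4 each). Against a floor of 3 counts per library the db/db mean was at least 695.5-fold lower, and at least 172.5-fold lower without db/m replicate 3, but db/m replicate 4 was at 0 too and the groups overlap.

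The 2 hormone genes of white fat followed Ucp1. Adipoq, which encodes adiponectin (ENSMUSG00000022878, chromosome 16, 23146536 to 23158028), had 2, 1, 0 and 0 counts in db/db, against 1082, 4, 2243 and 10 counts in db/m. The genotype groups did not overlap, by only a few counts where db/m was low. Lep, the leptin gene (ENSMUSG00000059201, chromosome 6, 29060220 to 29073877), had 4, 0, 0 and 0 counts in db/db, against 48, 0, 271 and 0 counts in db/m. Leptin is the ligand of the receptor that is defective in db/db mice, and its gene was at 0 in 3 db/db and 2 db/m libraries. Cfd, which encodes adipsin, a serine protease of complement secreted by fat cells (ENSMUSG00000061780, chromosome 10, 79890853 to 79892655), had 4, 7, 2 and 0 counts in db/db, against 2185, 13, 1256 and 31 counts in db/m. Cfd was the one gene of the 10 with fewer counts in db/m replicate 3 than in db/m replicate 1.

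Genes of the lipid droplet showed the same division. Plin1, the droplet coat protein that gates lipolysis in adipocytes (ENSMUSG00000030546, chromosome 7, 79720218 to 79732903), had 1, 4, 2 and 2 counts in db/db, against 1197, 3, 5241 and 19 counts in db/m. Cidec, which drives fusion of droplets into large ones (ENSMUSG00000030278, chromosome 6, 113424634 to 113435760), had 0, 8, 0 and 0 counts in db/db, against 721, 12, 2275 and 2 counts in db/m. In both genes db/db replicate 2 exceeded the lowest db/m library. Lgals12, encoding galectin-12 of adipocyte lipid droplets (ENSMUSG00000024972, chromosome 19, 7596660 to 7607193), had 0, 1, 2 and 1 counts in db/db, against 83, 0, 314 and 3 counts in db/m.

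Car3 and Pck1 encode metabolic enzymes. Car3, a cytosolic carbonic anhydrase abundant in fat and in slow muscle (ENSMUSG00000027559, chromosome 3, 14863512 to 14872523), had 6, 14, 0 and 0 counts in db/db, against 4238, 24, 22183 and 63 counts in db/m. It had the most counts of the 10 genes in both high libraries, and its genotype groups did not overlap. Pck1, the cytosolic phosphoenolpyruvate carboxykinase that supplies glycerol 3-phosphate in fat (ENSMUSG00000027513, chromosome 2, 173153048 to 173159273), had 0, 8, 2 and 2 counts in db/db, against 1417, 10, 8199 and 6 counts in db/m.

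Adig departed from the other 9. It encodes adipogenin, a small membrane protein of adipocytes (ENSMUSG00000044405, chromosome 2, 158502612 to 158508198), and had 14, 27, 19 and 26 counts in db/db, against 52, 5, 79 and 15 counts in db/m. Its level in CPM was 2.81 times the median of the other 6 libraries in db/m replicate 1 and 4.01 times in db/m replicate 3. The same multiples for Adipoq were 615 and 1200. Pearson r between log2 CPM profiles over the 8 libraries ranged from 0.871 to 0.99 among the 36 pairs of the 9 genes without Adig, and from 0.598 to 0.81 between Adig and each of the 9. These correlations rest on the 2 high libraries that all 9 share. No other annotated gene overlaps any of the 10 loci in GENCODE M21.

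The smaller numbers in the other 6 libraries were uneven. Car3 had 0 to 14 counts in db/db, against 24 and 63 in db/m replicates 2 and 4. Cfd had 0 to 7 counts in db/db, against 13 and 31 in these db/m libraries. Adipoq, Cfd and Car3 were lower in every db/db library than in every db/m library, 3 of the 10 genes, against 4.52% of genes with at least 50 counts over all libraries. The rule used this contrast, so the share is given without a reading.

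Per length, the order of the 10 genes differed between the 2 high libraries. In db/m replicate 1 the highest levels were 104 CPM per kb of exon for Cfd, 65.0 for Car3, 47.4 for Ucp1 and 34.5 for Adipoq. In db/m replicate 3 they were 320 CPM per kb for Car3, 208 for Ucp1, 98.9 for Pck1 and 67.2 for Adipoq, with Cfd lower at 56.3. Lep was lowest in both, at 0.629 CPM per kb in db/m replicate 1 and 3.34 in db/m replicate 3. Cfd held 34.5% of the per-kb sum of the 10 genes in db/m replicate 1 and 6.55% in db/m replicate 3, while Ucp1 held 15.7% and 24.2% in the same libraries.

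The brown to white ratio was taken as Ucp1 counts over Adipoq counts within a library. It was 3.66 in db/m replicate 3 (exact 95% interval 3.5 to 3.84) and 1.63 in db/m replicate 1 (1.51 to 1.76). Ucp1 thus made 78.6% of the counts of both genes in db/m replicate 3 (77.8% to 79.35%) and 62.0% in db/m replicate 1 (60.2% to 63.8%). The intervals do not overlap and compare the reads of 2 libraries, not conditions. In the other 6 libraries the genes together had fewer than 50 counts, so no ratio was formed.

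The order of both libraries in this ratio depended on the genes that stood for white and for brown fat. With the summed counts of the brown selective list in place of Ucp1, over Adipoq, it was 4.47 in db/m replicate 3 and 4.80 in db/m replicate 1. This order is the reverse, but no interval was formed. The list also summed to 127 to 149 CPM in the libraries with few adipocyte counts, against 228 and 415 CPM in db/m replicates 1 and 3. Its counts thus include a level that all libraries held, which was not taken off. Against Cfd the ratio was 6.54 in db/m replicate 3 and 0.808 in db/m replicate 1, and against Retn, the resistin gene, it was 111 and 17.1 in the same libraries. Against Cidec it was 3.61 and 2.45. Against Lep it was 30.3 (26.9 to 34.4) and 36.8 (27.6 to 50.1), so the intervals overlapped. Against Plin1 it was 1.57 (1.51 to 1.62) and 1.47 (1.37 to 1.59), again overlapping. Against Pck1 it was 1.003 and 1.25, the reverse order, and against Car3 0.371 and 0.416. Over 11 genes the ratio of db/m replicate 3 was 0.805 to 8.1 times that of db/m replicate 1.

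**Figure D2:**
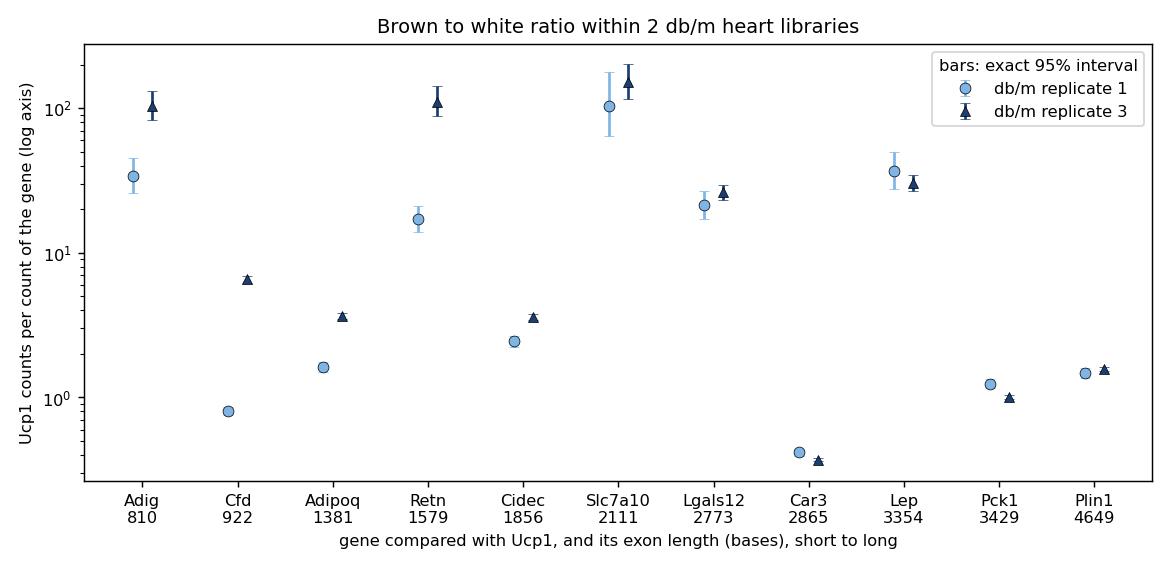
Ucp1 counts per count of each of 11 genes, on a log axis, in db/m replicate 1 (circles) and db/m replicate 3 (triangles), with genes ordered by exon length and bars for the exact 95% interval. The libraries are far apart for Cfd and Retn and close or in the reverse order for Lep, Pck1, Car3 and Plin1.

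Exon length moved with these differences. The genes whose ratio changed most were short, Cfd with 922 bases, Retn with 1579, Adig with 810 and Adipoq with 1381, while Lep, Pck1 and Plin1 have 3354, 3429 and 4649 bases. Spearman's rho between exon length and the change of the ratio was -0.9 over the 11 genes, which all share the Ucp1 count and the same 2 libraries. The same tilt ran through the libraries as a whole. Among tested genes with at least 100 counts in both libraries together, the median log2 ratio of CPM of db/m replicate 3 over db/m replicate 1 was -0.70 for 1605 genes up to 1000 bases, -0.50 for 1688 genes of 1000 to 2000 bases and 0.34 for 4222 genes above 6000 bases. For db/m replicate 4 over db/m replicate 2 these medians were -0.06, -0.03 and 0.04. The part of this tilt in the values of single genes was not tested.

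Each gene was also set beside the median of its own length class, as a description. The log2 ratio of db/m replicate 3 over db/m replicate 1 was 2.13 for Ucp1, which is 2.63 above the median of its class. The difference from the class median was 2.60 for Car3, 2.55 for Pck1, 2.51 for Lep, 2.13 for Lgals12, 2.07 for Cidec, 1.97 for Plin1, 1.46 for Adipoq and 1.21 for Adig. For Cfd it was -0.19, within the quartiles of its class. After division by the class medians, the ratio of db/m replicate 3 was 1.02 to 7.05 times that of db/m replicate 1 over the 11 genes, with 1.08 for Lep, 1.06 for Pck1, 2.25 for Adipoq and 7.05 for Cfd. Adipoq shares its class with Ucp1, so its value could not change. That adjustment was chosen after seeing the data.

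**Figure D3:**
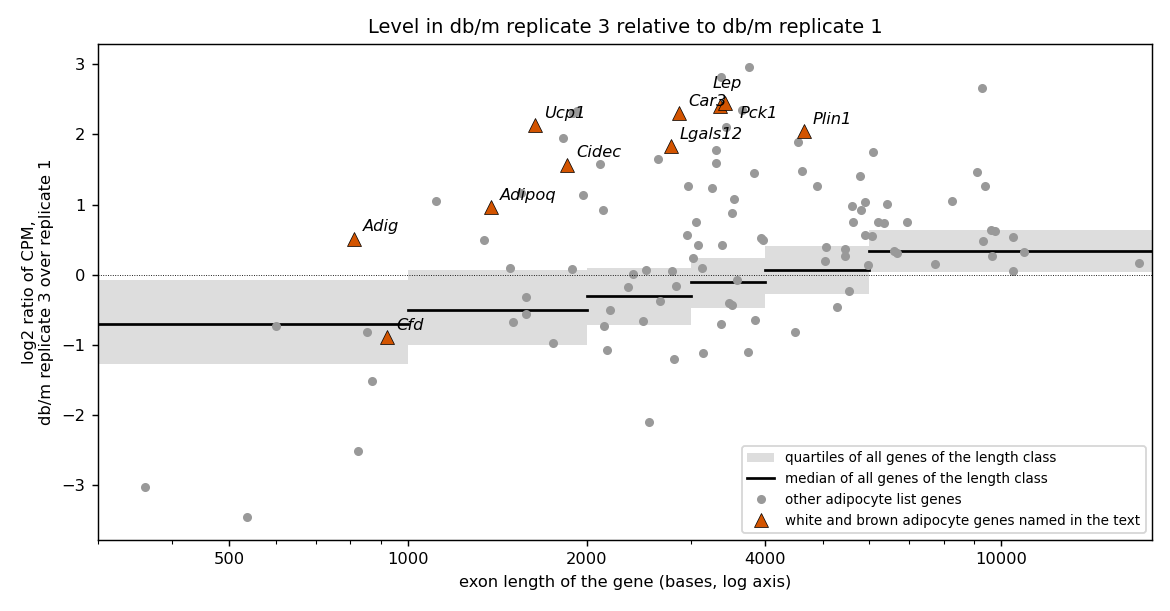
Log2 ratio of CPM of db/m replicate 3 over db/m replicate 1 against exon length on a log axis, for the 10 adipocyte genes (orange triangles) and other adipocyte list genes (grey points), with the median (line) and quartiles (band) of all genes in each length class. The class median climbs from -0.70 to 0.34 with length, and 9 of the 10 genes lie above the band while Cfd lies within it.

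Most other genes selective for brown fat were also high in db/m replicates 1 and 3, but some were not, and a few were near 0 in every library. Of 14 genes in the brown selective list 12 had at least 50 counts over all libraries, and in 9 of these db/m replicates 1 and 3 lay above the other 6, which held for 15.4% of all 18664 genes with that many counts. The same share applies to each list below. Otop1, a proton channel of brown fat, had 160 and 729 counts in db/m replicates 1 and 3 and 0 to 2 in the others. Slc27a2, a very long-chain acyl-CoA synthetase, had 16 and 133 counts against 0 in each of the others, and Dio2, the deiodinase that activates thyroid hormone in brown fat, had 1015 and 2040 against 42 to 138. Elovl3, a fatty acid elongase, had 21 and 49 against 0 to 6. Prdm16, Eva1a and P2rx5 had enough counts but did not follow. Prdm16 had 696 and 1033 counts against 523 to 849, Eva1a 167 and 77 against 111 to 215, and P2rx5 236 and 253 against 188 to 312. Zic1 and Lhx8 encode transcription factors of interscapular brown fat. Zic1 had 0 and 4 counts against 0 to 2, and Lhx8 had 0 in all 8 libraries.

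Some brown fat genes are also heart genes. Cidea, a droplet protein of brown adipocytes, had 1092 and 2404 counts in db/m replicates 1 and 3 and 514 to 777 in the other 6 libraries. In the list of 11 genes used by brown fat and heart alike, both libraries lay above the other 6 in 0 genes. Kcnk3, a potassium channel, had 13152 and 19635 counts in them, against 12389 to 13995. Cox8b, a short cytochrome oxidase subunit gene, had 3519 and 460 counts, against 3154 to 5222.

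Among 11 white-enriched genes 8 had at least 50 counts, and 4 of these were above the other 6 in both libraries. Retn had 103 and 74 counts in db/m replicates 1 and 3, and 0 to 1 in the others. Slc7a10, a neutral amino acid transporter that marks white adipocytes, had 17 and 54 against 0 to 2. Npr3, the natriuretic peptide clearance receptor, had 5106 and 13008 against 603 to 1232. Agt, Tcf21, Mest and Sncg had enough counts but were not above the other 6 in both libraries. Hoxc8, Hoxc9 and Hoxc10, position genes of subcutaneous white fat, had 0 counts in all 8 libraries. Each 0 allows up to 3 counts, which is 0.124 to 0.162 CPM per library.

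Fatty acid synthesis stood out among the other lists. In 9 of its 11 genes db/m replicates 1 and 3 lay above the other 6, and the summed level of the list was 589 to 780 CPM in the 4 db/db libraries, against 2133, 671, 2947 and 673 CPM in db/m replicates 1 to 4. Fasn, the fatty acid synthase, had 18868 and 25125 counts in db/m replicates 1 and 3 and 407 to 767 in the others. The same count was 8 of 26 genes for lipid storage and lipolysis, 6 of 13 for adipogenic transcription factors, 5 of 9 for adrenergic control of lipolysis, 3 of 9 adipokines and 2 of 4 beige genes with enough counts. Prkar2b, a regulatory subunit of protein kinase A, had 811 and 4390 counts against 46 to 80. Lpl, the lipoprotein lipase that heart muscle makes in quantity, had 116058 and 178466 against 98962 to 138542. In CPM it was at 5103 and 7381 against 5281 to 6802, so db/m replicate 1 lay below the range of the other 6.

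Markers of other cell types moved with the same libraries. The 10 atrial muscle markers summed to 117 to 251 CPM in db/db, against 2064, 111, 4702 and 189 CPM in db/m replicates 1 to 4, and 9 of the 10 were above the other 6 libraries in both. Sln, an inhibitor of the calcium pump in atria, had 4516 and 1589 counts in db/m replicates 1 and 3, while Bmp10, an atrial growth factor, had 2334 and 74283. Bmp10 alone made 3072 CPM of the sum in db/m replicate 3. Myl4, Myl7, Nppa and Kcna5 also had fewer counts in db/m replicate 3 than in db/m replicate 1, while Mybphl, Sbk2, Dkk3 and Gja5 had more. Smooth muscle markers were above in 4 of 4 genes. They summed to 84.8 to 147 CPM in db/db, against 245, 197, 708 and 183 CPM in db/m replicates 1 to 4. Unlike the atrial sum, this sum was higher in every db/m library than in every db/db library. Ventricular muscle markers, which check the labelled tissue, summed to 4773 to 5981 CPM in db/db, against 3371, 4516, 2119 and 4192 CPM in db/m replicates 1 to 4. They went both ways in db/m replicate 3. Myl2, Myl3, Kcne1 and Irx4 were at 0.144, 0.236, 0.403 and 0.491 times the median of the other 6 libraries. Myh7 and Hey2 were at 1.69 and 1.68 times. Myl2, Myl3, Irx4 and Kcne1 have 1950, 2044, 2607 and 3214 bases of exon, and Myh7 and Hey2 have 8616 and 4593. In db/m replicate 1 all 6 markers were below the median of the other 6 libraries, from 0.433 times for Kcne1 to 0.869 times for Hey2. The part of these cell types in the adipocyte values was not tested.

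Mesothelial markers, of the cells that cover the heart, were high in db/m replicates 1 and 3 and also in db/db replicate 1. They summed to 64.5, 28.9, 21.3 and 20.5 CPM in db/db replicates 1 to 4, against 56.5, 18.4, 104 and 16.6 CPM in db/m replicates 1 to 4. In db/db replicate 1, where this sum was above that of db/m replicate 1, the 10 adipocyte genes held 31 counts. Skeletal muscle markers summed to at most 2.52 CPM, lung epithelium to at most 0.32 CPM and liver to at most 1.83 CPM in any library. Of 8 T cell and thymus markers, Rag1 and Dntt were at 0 throughout, and the sum was at most 4.61 CPM. B cell, erythroid, nerve, endothelial and macrophage markers were above the other 6 libraries in both in 0 of 4, 0 of 5, 1 of 3, 1 of 4 and 0 of 4 genes with at least 50 counts.

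**Figure D4:**
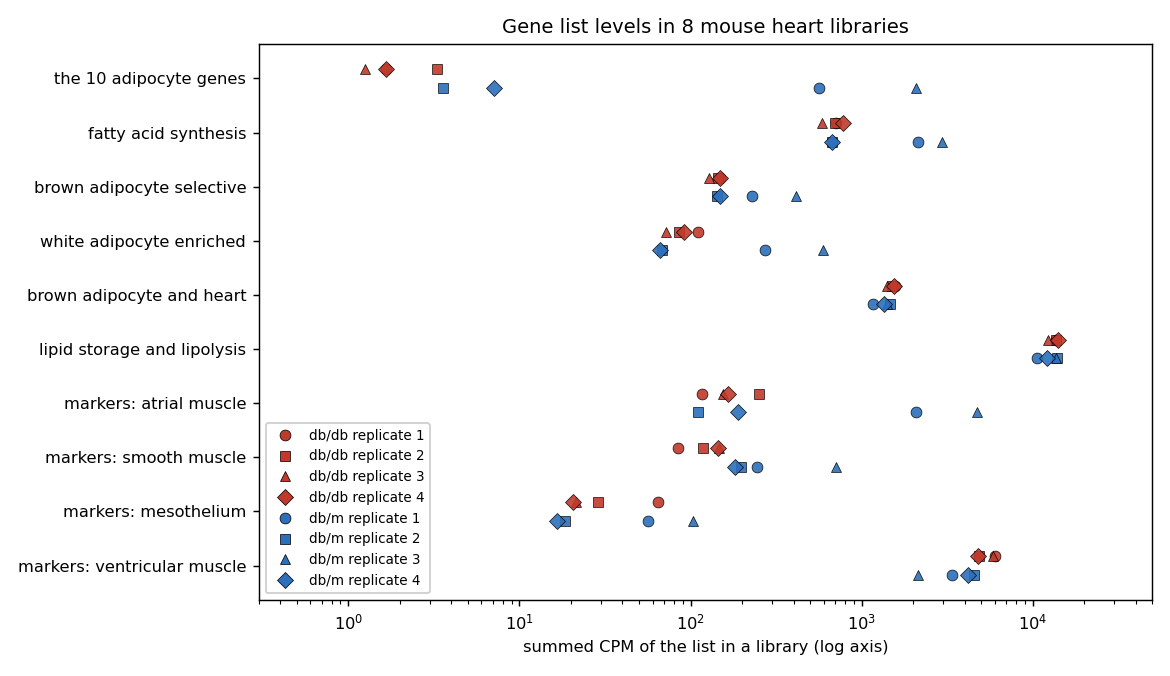
Summed CPM of 10 gene lists in each library, on a log axis, with db/db libraries in red above db/m libraries in blue and a marker shape for each replicate number. The db/m circle and triangle lie to the right for the 10 adipocyte genes (562 and 2080 CPM), fatty acid synthesis and atrial muscle, and not for the list shared by brown fat and heart.

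The db/db hearts were compared with db/m hearts across all genes. Of the 10 adipocyte genes only Cfd, Car3 and Adig passed the filter on low counts, because the others were high in too few libraries. These 3 were in the fit of all genes, but their p-values are not used because the genes were chosen on this contrast. As a description, the fitted log2 fold change of db/db over db/m was -7.81 (SE 1.72) for Cfd, -10.09 (SE 2.27) for Car3 and -0.61 (SE 0.65) for Adig. Without db/m replicates 1 and 3 these values were -2.68 (SE 0.85), -3.05 (SE 1.01) and 1.14 (SE 0.61). The estimate of Adig thus changed sign.

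No other adipocyte gene passed with all 8 libraries. Of 106 genes in the adipocyte lists outside the 10, 87 were tested, and edgeR called 0 higher and 0 lower, with p adjusted over the whole table by the Benjamini-Hochberg method. Over all 17411 tested genes 0 were called higher, which is 0%, and 1 was called lower, which is 0.00574%. That gene was Slc38a1, a glutamine transporter outside the lists, named after its value was seen. At an unadjusted p under 0.05 there were 33 of the 87 (15 higher and 18 lower), against 2257 of all 17411 tested genes. DESeq2 called 10 of the 87, against 186 higher and 191 lower among all 17411. By limma-voom with sample weights 1 of the 87 was called, against 54 higher and 47 lower among all 17411. The lists were chosen with earlier results of these data known, so nothing is read from these counts. The median log2 fold change of the 87 genes was -0.25, against -0.02 over all tested genes.

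Without db/m replicates 1 and 3, the median over 88 adipocyte list genes was 0.05, against 0.00 over all 17971 genes tested. In the fatty acid synthesis list the median was -1.32 with all libraries and -0.09 without both. Fasn had a log2 fold change of -4.37 (SE 1.07; edgeR with Benjamini-Hochberg adjustment, adjusted p = 0.206) with all libraries and -0.51 (SE 0.16; adjusted p = 0.238) without both. Scd1, the stearoyl-CoA desaturase, had -3.46 and -0.33, Dio2 had -3.20 and 0.08, and Prkar2b had -4.19 and -0.26. Cebpa, a transcription factor of fat cell differentiation, had -2.13 and -0.36. None of these passed with edgeR in either fit, while DESeq2 with all 8 libraries called Fasn, Scd1 and Prkar2b lower.

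Other genes of the lists had similar estimates in both fits. Agt, the angiotensinogen gene, had 13.4 ± 4.39 CPM in db/db and 6.002 ± 1.02 CPM in db/m (SD, n = 4 each), with log2 fold changes of 1.15 (SE 0.25) with all libraries and 1.16 (SE 0.32) without both. Its Benjamini-Hochberg adjusted p by edgeR was 0.158 with all libraries and 0.221 without both, so it passed in neither. Mlxipl, the glucose-sensing factor ChREBP, had -0.71 and -0.73 and did not pass with edgeR either. DESeq2 with all 8 libraries called both Agt and Mlxipl.

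Without db/m replicates 1 and 3, edgeR called 1 adipocyte list gene higher and 1 lower, from 2 db/m and 4 db/db libraries, where 0.150% of all tested genes were higher and 0.106% lower. Both left-out libraries were singled out by values in these same data. Klf15, a transcription factor induced by fasting and glucocorticoids, had a log2 fold change of 0.72 (SE 0.12; edgeR with Benjamini-Hochberg adjustment, adjusted p = 0.0348). It had 0.52 (SE 0.14; adjusted p = 0.243 by the same test) with all 8 libraries, where DESeq2 and limma-voom called it. Its level was 58.6 to 68.9 CPM in db/db, against 51.1, 42.1, 53.2 and 37.5 CPM in db/m replicates 1 to 4. The left-out libraries were thus the db/m libraries nearest to db/db. G0s2, an inhibitor of adipose triglyceride lipase, fell by 0.76 on the log2 scale (SE 0.13; edgeR with Benjamini-Hochberg adjustment, adjusted p = 0.0464). It had 692, 1030, 1017 and 846 counts in db/db, against 1739, 1719, 648 and 1380 counts in db/m replicates 1 to 4, so that db/m replicate 3 was its lowest library. G0s2 has 871 bases of exon, in the shortest length class. That class had a median log2 ratio of db/m replicate 3 over db/m replicate 1 of -0.70 and a lower quartile of -1.27. G0s2 was below both, at -1.51. Its fold change with all libraries was -0.51 (adjusted p = 0.455 by the same test). Leaving out db/m replicate 3 on its own gave the same calls for Klf15 and G0s2.

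**Figure D5:**
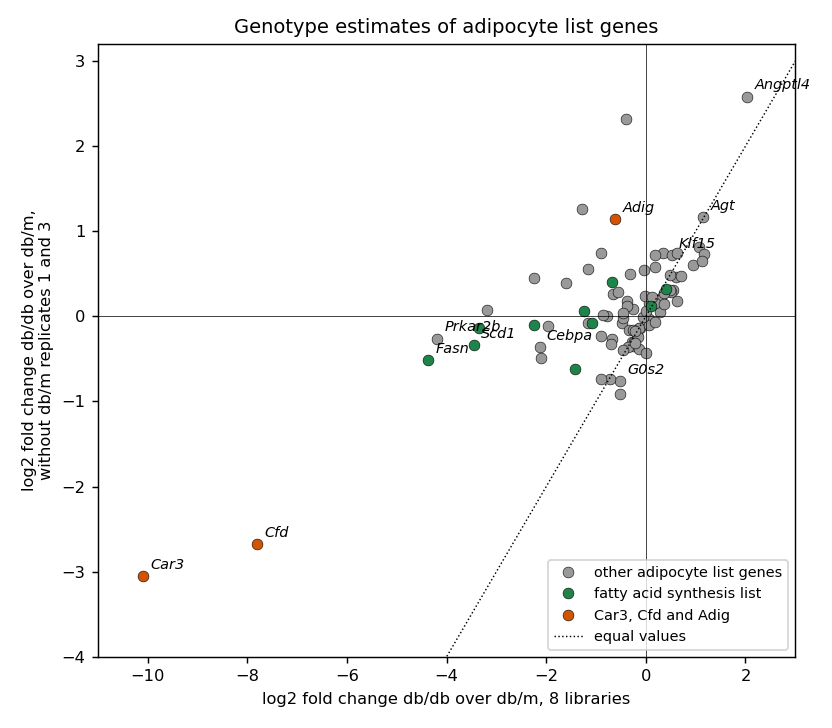
Log2 fold change of db/db over db/m for adipocyte list genes, with all 8 libraries on the x axis and without db/m replicates 1 and 3 on the y axis, with the dotted line for equal values. Fatty acid synthesis genes (green) reach -4.37 on the x axis, where Fasn stands, and Fasn lies at -0.51 on the y axis, while Agt lies on the line and Adig (orange) changes sign.

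The genes most like the 10 across the 8 libraries were taken from the other tested genes by Pearson r with the mean standardised log2 CPM profile. The 10 nearest had r from 0.987 to 0.995 over 8 libraries. They were Tkt, Stxbp6, Cntfr, Loxl3, Tpm2, Tgfb3, Scd1, Prelp, Elovl6 and the processed pseudogene Gm5182. Tkt, the transketolase of the pentose phosphate pathway, had 331, 480, 454 and 327 counts in db/db, against 1793, 400, 2639 and 452 counts in db/m. Elovl6, a fatty acid elongase, had 47, 65, 47 and 78 counts in db/db, against 861, 63, 1841 and 72 counts in db/m. The likeness rests on db/m replicates 1 and 3, which are high in each of these genes.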

How the data were processed

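RNA from hearts of db/db and db/m mice was made into NEBNext Ultra libraries, 4 per genotype, from 3 µg of total RNA, per the labels' protocols. The authors deposited unnormalised whole-number counts per Ensembl gene, on build mm10 per the submitters' processing notes. Aligner, counter and strand setting: not given in the sources used here. Exon length, another value deposited in the table, equalled the merged exons of each of the 55573 genes. Single-sample files, 8 in number, equalled the table. GENCODE M21 gave symbols for 55394 identifiers. Rows naming no gene numbered 0. No pair of libraries of one genotype was as close as sampling noise.

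Genotypes were compared using edgeR 4.0.16 under R 4.3.3 (filterByExpr with minimum count 10 and total 15, TMM, robust two-sided quasi-likelihood F test, Benjamini-Hochberg over 17411 genes, threshold 0.05), checked on simulated data. CPM uses scaled library sizes, and log2 CPM a prior count of 2. Alternatives were DESeq2 1.42.0, limma 3.58.1 voom, other scaling and filters, a replicate block and leaving out libraries. The 10 genes and all lists (9 pathway lists, 13 marker lists) were chosen with earlier results of these data known. Named genes were the 10, list genes with the highest CPM (3 per list) or smallest p (up to 4), any of the brown selective, white, adipokine and atrial lists, called list genes and the 10 nearest profiles. Depth of 19541757 to 22249911 counts limits the precision of low genes.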

Additional observations from a re-analysis of the deposited data

Results flagged for a closer look

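Among 80 genotype groups of 4 libraries checked for 43 named genes, 11 had one library far from the other 3 by the 95% limit of Dixon's ratio of gap to range. In 6 of the 11 the other 3 libraries were at exactly 0, so the ratio is 1 by construction and the chance rate of about 1 in 20 groups does not apply to them. The other 5 are Upk3b and Klf15 in db/db and Bmp10, Slc27a2 and Adrb3 in db/m. In db/db, Cidec was seen in replicate 2 alone, at 0.375 CPM against 0 in the others (ratio 1). Lep was seen in db/db replicate 1 alone, at 0.215 CPM (ratio 1), as was Elovl3, at 0.323 CPM (ratio 1), and these values rest on 4 to 8 counts. Zic1 was seen in db/db replicate 4 alone, at 0.107 CPM (ratio 1), and Mlana in the same library, at 0.0534 CPM (ratio 1). Upk3b, a mesothelial marker, had 27.1 CPM in db/db replicate 1 against 2.99 to 5.49 in the other db/db libraries (ratio 0.896). Klf15 had 58.6 CPM in db/db replicate 4 against 67.3 to 68.9 (ratio 0.845).

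In db/m, replicate 3 stood apart for Bmp10, at 3072 CPM against 0.333 to 103 CPM in the other db/m libraries (ratio 0.967). The same library stood apart for Slc27a2, at 5.50 CPM against 0 to 0.704 (ratio 0.872), and for Adrb3, the beta-3 adrenergic receptor of adipocytes, at 34.4 CPM against 0 to 4.88 (ratio 0.858). Zic1 was seen in db/m replicate 3 alone, at 0.165 CPM (ratio 1). Adrb3 was named after its values were seen.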

How the results depend on the processing

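The count of genes called hung on the tool and on db/m replicate 3. With edgeR 0 genes were higher and 1 lower in db/db. DESeq2 called 186 higher and 191 lower, limma-voom with sample weights 54 and 47, edgeR with no filter 18 and 9, and the fit without db/m replicates 1 and 3 called 27 and 19. Leaving out one library gave 0 to 64 higher and 0 to 42 lower, the largest without db/m replicate 3. The 1 lower gene, Slc38a1, no longer passed when db/db replicate 1, 2 or 4 was left out, nor without db/m replicate 1. Adipocyte list genes called numbered 0 with edgeR, 10 with DESeq2 (3 higher and 7 lower), 1 with limma-voom and 2 without db/m replicates 1 and 3. Leaving out one library gave 0 to 2 of them. With the replicate number as a block, 3 genes were higher and 2 lower, and 0 adipocyte list genes passed. Deviations of same-numbered libraries correlated at -0.0882 to 0.0561, which shows no pairing by number and does not exclude a weak one. The cause of these differences was not tested.

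The ratio of Ucp1 to Adipoq was 3.66 in db/m replicate 3 and 1.63 in db/m replicate 1. Per kb of exon it was 3.09 and 1.38 in these libraries. With Lep in place of Adipoq it was 30.3 and 36.8, with Plin1 1.57 and 1.47, and with Cidec 3.61 and 2.45. The exact intervals for Lep were 26.9 to 34.4 in db/m replicate 3 and 27.6 to 50.1 in db/m replicate 1. They overlapped, so the Lep values show no change of order. With the brown selective list in place of Ucp1 the ratio was 4.47 and 4.80, the reverse order, but no interval was formed. That list also summed to 127 to 149 CPM in the libraries with few adipocyte counts. Division by the change of the length class, chosen after seeing the data, could not move the value of 3.66, because Ucp1 and Adipoq fall in the same class. Of 64 alternative log2 fold changes, available for 7 of the 10 genes, 62 were negative and the other 2 were of Adig. The genes were chosen as high in db/m libraries and the fits reuse these libraries, so the signs are a description and no test. Genes at 0 in all db/db libraries have fitted values that depend on the prior count. Counts under 3 per library are below what this depth resolves.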

Other observations

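Beyond the lists, 36 genes of the table had at least 50 counts in both db/m replicates 1 and 3 and at most 10 in each of the other 6 libraries. For each of the other 27 pairs of libraries the same search found at most 1 gene. Of the 36 genes 31 are protein-coding, 4 are Ucp1, Adipoq, Pck1 and Lgals12, 5 are in the adipocyte lists and 0 in the atrial list. The 5 are Otop1, Retn, Adrb3, the activin receptor gene Acvr1c and the FGF21 co-receptor gene Klb. The limit of 10 counts left out the atrial genes Sln, Mybphl, Bmp10 and Myl7. They had at most 83, 48, 18 and 13 counts in the other 6 libraries. Car3 and Cfd, with at most 63 and 31, were left out by the same limit. The search and the genes named from it were chosen after seeing the data.

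Several of the 36 encode receptors. Rxfp1, the relaxin receptor, had 257 and 370 counts in db/m replicates 1 and 3 and 0 to 6 in the others. Glp1r, the receptor of glucagon-like peptide 1, had 108 and 410 counts against 0 to 8. Tshr, the thyrotropin receptor, had 60 and 157 against 0 to 2. Others encode matrix proteins of cartilage, among them Chad, chondroadherin, with 343 and 254 counts against 0 to 10, and Epyc, epiphycan, with 72 and 92 against 0 to 2. Mlana, a melanocyte protein gene, had 67 and 59 counts against 0 to 1.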
